A study of Mus musculus with 4 samples.

Results

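The comparison was that of AML12 cells with liver, both given a control siRNA. AML12 is a hepatocyte line that was established from a CD-1 mouse transgenic for human transforming growth factor alpha, and the labels give the cells as male. The cells grew in DMEM-F12 with 10% fetal bovine serum, insulin, transferrin and selenium (ITS) and 10 nM dexamethasone, and received a negative control siRNA at 10 nM for 72 h. The livers came from wild-type male mice of 6 weeks (strain written C57N1/6N in the labels, C57BL/6N in the methods), which were given a negative control siRNA by hydrodynamic tail vein injection and were taken at 72 h, and the methods give 40 µg at each injection. Each side was 1 array, run on a pool of 4 samples per the methods. Strain, age, culture medium and the route and dose of siRNA differed together with cells against tissue, and their parts cannot be told apart. The series holds 4 arrays, and the other pair, of AML12 cells and liver given *Ulk1* siRNA, shares no array with the control pair. With 1 array per group there are no replicates, so cells and tissue are compared without a test or an error, and the small number of arrays limits what can be said.

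Of 22180 genes with a probe set of their own, 12363 were compared, those whose higher value reached the gene median of its array (4.35 in AML12 cells, 4.41 in liver, as log2 expression). The other 9817 genes were at lower values on both arrays. Of the compared genes 2554 reached the median on 1 array only and so were compared through the array where they were high, with 697 of them called higher and 887 called lower in AML12 cells. Genes are called higher or lower in AML12 cells where the 2 values lay 1 log2 or more apart, which is a factor of 2. Values at or below 3.65 in AML12 cells or 3.74 in liver were taken as background. These levels are the 95th percentile of 1373 genes for odorant and vomeronasal receptors, which serve smell and are not expected in liver. Of a gene at background on 1 array only a bound of the difference is known, and a fold written as "at least" was computed against the background level.

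Hepatocytes make most plasma proteins, make bile acids, turn ammonia into urea, release glucose in fasting and clear drugs and steroids through cytochrome P450 and conjugating enzymes. A network of transcription factors and nuclear receptors keeps these genes active, and isolated hepatocytes are known to lose many of them in culture. Liver tissue also holds Kupffer cells, sinusoidal endothelium, stellate cells, bile duct cells and blood, none of which a hepatocyte line contains. In a bulk sample, fewer cells of a type and less RNA per cell cannot be told apart.

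Genes higher in AML12 cells outnumbered genes that were lower. In AML12 cells 2681 genes (21.7%) were higher and 1839 genes (14.9%) were lower, and 7843 differed by under 1 log2. The median difference, AML12 cells minus liver, was 0.24 over the compared genes and 0.05 over all genes. Large differences ran the other way. A difference of 3 log2 or more, a factor of 8, was found for 638 genes lower in AML12 cells (5.16%) and for 287 genes higher (2.32%). Of the 638, 321 were at background in AML12 cells, and of the 287, 81 were at background in liver.

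**Figure D1:**
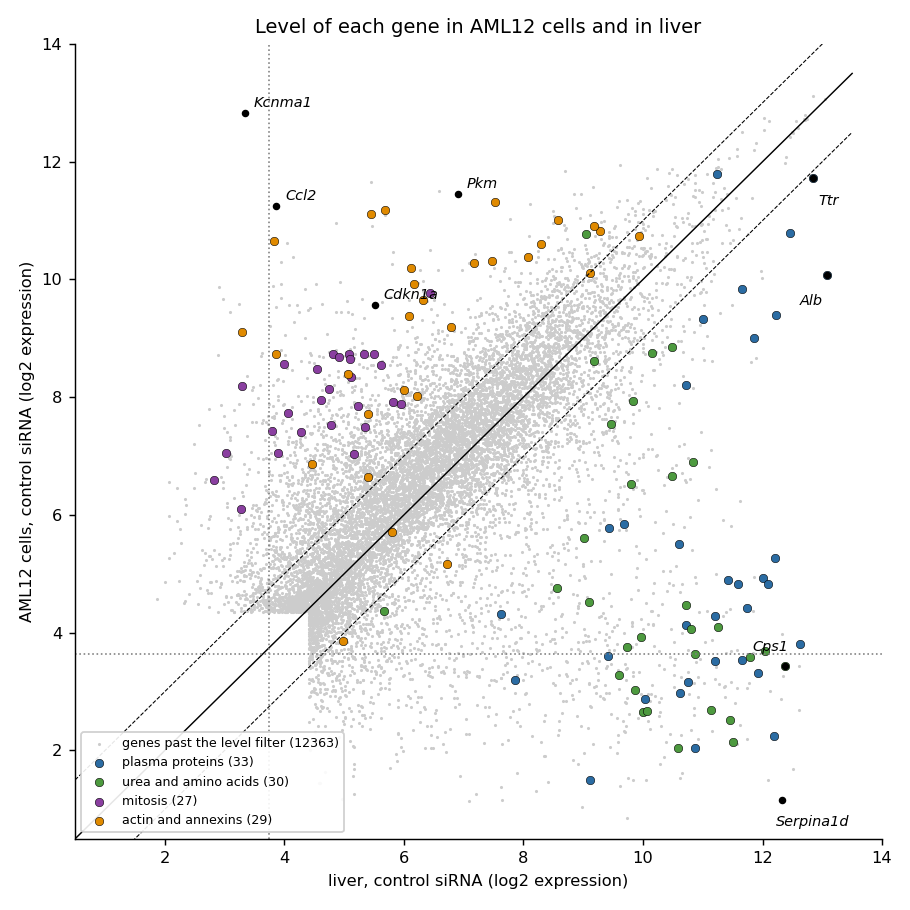
Log2 expression of each compared gene in AML12 cells (vertical axis) and in liver (horizontal axis), both with control siRNA, 1 array each. Colours mark members of 4 gene lists, the solid line marks equal levels, the dashed lines 1 log2 either way, and the dotted lines the background level of each array. Many plasma protein and urea cycle genes lie at the bottom right, while the mitosis genes lie above the upper dashed line.

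The genes with the largest deficit in AML12 cells were secreted or hepatic products. *Serpina1d*, a serum protease inhibitor of the alpha-1-antitrypsin family, had 1.16 log2 expression in AML12 cells and 12.32 in liver, at least 409-fold lower. *Mup3*, a major urinary protein, had 1.69 in AML12 cells and 12.52 in liver. *Hamp*, the iron hormone hepcidin, had 1.5 in AML12 cells and 12.09 in liver. The other 12 of the 15 largest deficits were *Fgg*, *Mup20*, *Fabp1*, *Slco1b2*, *Ces3a*, *Tdo2*, *Hc*, *Serpina1c*, *Cyp2e1*, *Car3*, *Sult2a8* and *Ces3b*, which were 9.03 to 9.94 log2 lower as measured. All 15 were at background in AML12 cells. The *Serpina1*, *Mup* and *Ces* families hold near-identical copies, so the probes of 1 member may also read its relatives.

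The largest excess in AML12 cells belonged to *Kcnma1*, the pore subunit of the calcium-activated BK potassium channel. It had 12.84 in AML12 cells, where it was among the brightest genes on the array, and 3.34 in liver, which is background. This is 1 of 2 probe sets of the gene, and the other was at background on both arrays, at 2.56 in AML12 cells and 2.26 in liver, so the place of *Kcnma1* rests on 1 probe set. With the mean of both the difference was 4.90, below that of *Ccl2*. *Ccl2*, a chemokine for monocytes, had 11.25 in AML12 cells and 3.86 in liver. *Psat1*, an enzyme of serine synthesis, had 9.86 in AML12 cells and 2.90 in liver, at least 69.8-fold higher. The rest of the 15 were *S100a6*, *Vsig1*, *Cpe*, *Tspan8*, *Rbp2*, *Msln*, *Cdh6*, *Peg3*, *Myof*, *Krt19*, *Ankrd1* and *Pip5k1b*, which were 5.82 to 6.83 log2 higher as measured. *Vsig1*, *Tspan8*, *Rbp2* and *Pip5k1b* were at background in liver, where the bounds of the differences were 5.93, 5.72, 5.85 and 4.98 log2, and the other probe set of *Rbp2* was 2.24 log2 higher. The 12 include a mesothelial surface protein (*Msln*), a kidney cadherin (*Cdh6*), a ductal keratin (*Krt19*) and a retinol binding protein of the intestine (*Rbp2*).

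The most abundant transcripts of each system were also described. The 100 brightest genes of each system were picked on its *Ulk1* siRNA array and then read on the control arrays, and 32 genes were in both sets. Both arrays of a system correlated at 0.99 over genes (Pearson). The direction of each set was thus largely fixed by the choice and is no separate support. Of the 100 brightest liver genes, 66 were lower in AML12 cells, 57 of them by 3 log2 or more, and 31 were at background there, with a median difference of -5.40. Of the 100 brightest AML12 genes, 37 were higher in AML12 cells, 8 by 3 log2 or more, and 62 were within 1 log2, with a median of 0.73. *Kcnma1* was the only one of these 100 at background in liver. Genes of the mitochondrial genome, singled out after their values were seen, read nearly level, but near the top of both arrays. *ND4*, a complex I subunit, had 13.07 in AML12 cells and 13.05 in liver, and 9 of the 10 mitochondrial genes measured differed by under 0.1 log2. These 9 lay between 12.41 and 13.07 in AML12 cells, on arrays whose highest values were 13.14 in AML12 cells and 13.16 in liver, and whether their probes were saturated was not tested. The gene below that range was *ND6*, at 10.04 in AML12 cells and 10.73 in liver.

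**Figure D2:**
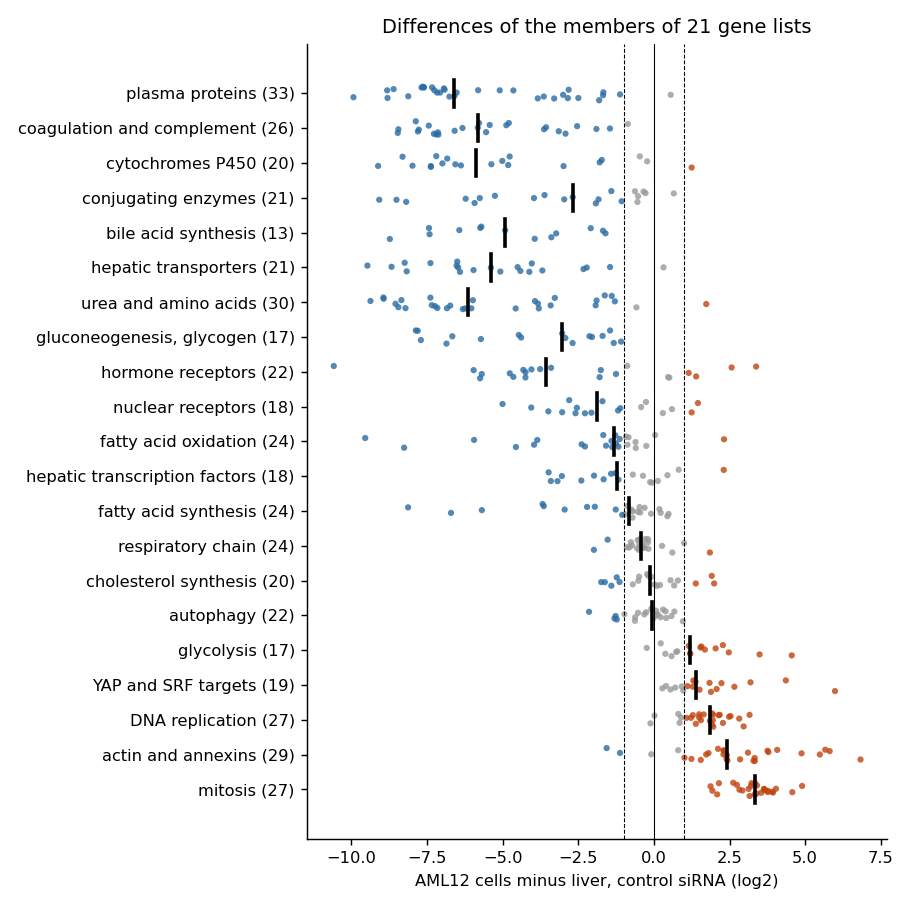
Difference between AML12 cells and liver (log2, control siRNA) for the compared members of 21 gene lists, with the number of genes in parentheses. Each point is a gene, coloured when 1 log2 or more higher (orange) or lower (blue), and the black bar is the list median, which ran between -6.59 for plasma proteins and 3.35 for mitosis.

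Transcription factors of the hepatic network were mostly still measured in AML12 cells. None of the 18 factors in the list was at background in AML12 cells. Of these, 10 were lower, 1 was higher and 7 were within 1 log2, with a median of -1.22. *Hnf4a*, the nuclear receptor at the centre of the network, had 8.47 in AML12 cells and 9.64 in liver. *Foxa1*, which opens hepatic chromatin, had 7.24 in AML12 cells and 7.36 in liver, and *Foxa2* had 8.15 in AML12 cells and 7.33 in liver. *Onecut1*, *Onecut2*, *Cebpb*, *Gata4* and *Hhex* also differed by under 1 log2. The factors of the differentiated state stood lower. *Cebpa*, a driver of metabolic genes in mature hepatocytes, had 6.19 in AML12 cells and 9.67 in liver. *Creb3l3*, which serves fasting lipid metabolism, had 5.93 in AML12 cells and 9.34 in liver, and *Mlxipl*, which senses glucose, had 6.49 in AML12 cells and 9.68 in liver. *Gata6* was the only factor higher, at 7.89 in AML12 cells and 5.58 in liver.

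The nuclear receptors split by receptor. *Nr1h4*, the bile acid receptor FXR, was nearly level, at 10.13 in AML12 cells and 9.84 in liver. *Nr3c1*, the glucocorticoid receptor, had 8.27 in AML12 cells and 8.53 in liver. The xenobiotic receptors were lower in AML12 cells. *Nr1i3* (CAR) had 3.39 in AML12 cells, which is background, and 8.40 in liver, and *Nr1i2* (PXR) had 4.02 in AML12 cells and 8.07 in liver. *Nr0b2*, the corepressor SHP that FXR induces, had 4.02 in AML12 cells and 7.51 in liver. *Rxra*, the common partner of these receptors, had 6.6 in AML12 cells and 9.15 in liver, and *Ppara*, the fatty acid receptor, had 6.78 in AML12 cells and 9.06 in liver. *Ppard* and *Vdr* were higher in AML12 cells, by 1.25 and 1.45 log2. In all, 12 of 18 compared receptors were lower and 2 higher, with a median of -1.88.

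**Figure D3:**
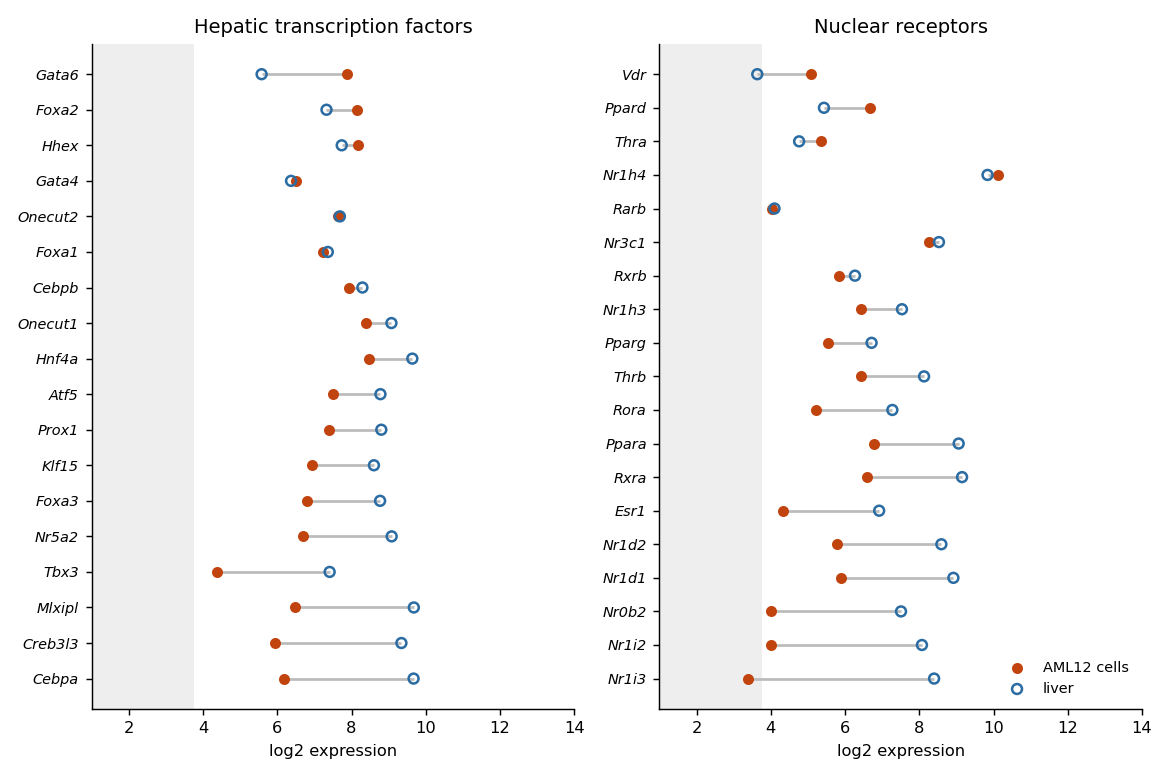
Log2 expression of hepatic transcription factors and nuclear receptors in AML12 cells (filled orange) and liver (open blue), 1 array each, ordered by the difference. The grey band is the background range, which of these genes *Nr1i3* in AML12 cells and *Vdr* in liver fall into.

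Plasma protein genes were lower nearly throughout. Of the 33 genes compared, 32 were lower in AML12 cells and 25 of these by 3 log2 or more, with a median of -6.59, against 0.24 over the compared genes. Many of them passed the level filter through liver alone. Over those at or above the gene median on both arrays the median was -3.32. The differences were uneven. *Alb*, serum albumin, had 10.07 in AML12 cells and 13.07 in liver. *Ttr*, the thyroxine and retinol carrier transthyretin, had 11.72 in AML12 cells and 12.84 in liver, and *Apob*, the scaffold of very low density lipoproteins, had 10.79 in AML12 cells and 12.46 in liver. *Cp*, the ferroxidase ceruloplasmin, was the one gene of the list not lower, at 11.80 in AML12 cells and 11.24 in liver. At the other end, *Fgg*, the fibrinogen gamma chain, had 2.25 in AML12 cells and 12.19 in liver, while *Fgb*, the beta chain, had 5.26 in AML12 cells and 12.21 in liver. *Ahsg*, the mineral carrier fetuin A, had 3.81 in AML12 cells and 12.62 in liver, and *Apoa1*, the main protein of high density lipoprotein, had 5.85 in AML12 cells and 9.69 in liver.

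Clotting and complement factors behaved alike. Of 26 genes compared, 25 were lower, 21 by 3 log2 or more. The median was -5.80, or -3.15 over those at or above the gene median on both arrays. *C9*, the pore of the complement attack complex, had 2.91 in AML12 cells and 11.38 in liver, and *Serpinc1*, antithrombin, had 2.35 in AML12 cells and 10.80 in liver. *F9*, whose lack causes haemophilia B in people, had 2.42 in AML12 cells and 10.30 in liver. *Cfb*, complement factor B, was the only gene within 1 log2, at 10.19 in AML12 cells and 11.05 in liver. *Proc*, the anticoagulant protein C, had 8.77 in AML12 cells and 10.67 in liver.

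The promoters of plasma protein genes are shown because albumin and fibrinogen, with very different levels in AML12 cells, share a match to GTTAATNAT, an element read by homeodomain factors of liver. Windows run 250 bases before to 50 bases after the start (RefSeq, GRCm38.p6), both strands were searched, and a gene counted when any of its starts had a match. The element was found in 4 of 27 compared plasma protein genes with a window (14.8%) and in 0.94% of all 27025 genes with one. The 4 genes were *Alb*, *Fga*, *Cp* and *Afm*, whose differences were -3.0, -7.68, 0.55 and -3.64 log2. The *Alb* window is chr5:90460620-90460919 on the plus strand and that of *Fga*, the fibrinogen alpha chain, chr3:83025903-83026202 on the plus strand, with the element in capitals.
Alb: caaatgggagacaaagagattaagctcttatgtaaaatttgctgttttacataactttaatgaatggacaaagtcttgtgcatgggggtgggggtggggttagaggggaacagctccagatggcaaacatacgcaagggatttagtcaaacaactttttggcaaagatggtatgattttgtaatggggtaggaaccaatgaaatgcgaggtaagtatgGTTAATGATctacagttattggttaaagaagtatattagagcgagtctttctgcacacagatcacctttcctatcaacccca
Fga: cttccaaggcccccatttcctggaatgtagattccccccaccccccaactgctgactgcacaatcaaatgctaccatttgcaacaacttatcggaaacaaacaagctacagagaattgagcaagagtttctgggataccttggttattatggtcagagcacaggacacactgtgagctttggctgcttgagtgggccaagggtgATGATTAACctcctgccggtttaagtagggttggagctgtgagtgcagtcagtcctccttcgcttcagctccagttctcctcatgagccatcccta
No window of the 27 genes held CAAAGTCCA, an HNF4 element (0.555% of all genes), or the C/EBP palindrome TTGCGCAA (0.207%). A match is a description of letters and was not tied to binding.

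Drug metabolism genes were lower. Of 20 cytochrome P450 genes compared, 17 were lower, 14 by 3 log2 or more. The median was -5.88, or -5.10 with values below background raised to it. For those at or above the gene median on both arrays it was -2.39. *Cyp2e1*, which oxidises ethanol, had 3.01 in AML12 cells and 12.13 in liver. *Cyp1a2*, which clears caffeine, had 3.84 in AML12 cells and 11.04 in liver, and *Cyp3a11*, the main mouse relative of human CYP3A4, had 2.55 in AML12 cells and 9.92 in liver. *Cyp51*, a sterol synthesis enzyme, differed little, at 8.92 in AML12 cells and 9.14 in liver. *Cyp39a1*, an oxysterol hydroxylase, was the only P450 of the list that was higher, at 8.79 in AML12 cells and 7.54 in liver. Over the Cyp1 to Cyp4 families as a whole, 43 of 48 compared genes were lower and 1 higher, with a median of -5.73 (-4.79 with values raised to background), and many of these paralogs are near-identical, so single members are uncertain.

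Conjugating enzymes were lower or level. Of 21 compared, 15 were lower and none higher, with a median of -2.69, or -0.85 over those at or above the gene median on both arrays. *Ugt2b1*, a glucuronosyl transferase, had 3.66 in AML12 cells and 11.85 in liver, and *Sult2a8*, a bile acid sulfotransferase of mouse liver, had 1.53 in AML12 cells and 10.61 in liver. Members of 1 family differed widely. Among glutathione transferases *Gsta3* had 9.76 in AML12 cells and 10.10 in liver, *Gsta4* had 9.58 in AML12 cells and 8.93 in liver, and *Gstp1*, which is high in male mouse liver, had 10.15 in AML12 cells and 11.98 in liver, while *Gstm3* differed by -5.76 log2. Taken whole, 9 of 16 compared *Gst* genes were lower and 1 higher (median -1.39), and 3 of 7 compared *Sult* genes were lower and 2 higher (median -0.63).

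All 13 genes of bile acid synthesis were lower in AML12 cells, 10 by 3 log2 or more. Their median was -4.92, or -3.94 with values below background raised to it. Restricted to genes at or above the gene median on both arrays it was -2.66. *Cyp7a1*, the rate-limiting enzyme of the classical route, had 2.19 in AML12 cells and 10.92 in liver, at least 155-fold lower. *Cyp8b1*, which sets the share of cholic acid, had 4.23 in AML12 cells and 9.97 in liver, and *Baat*, which conjugates bile acids, had 2.89 in AML12 cells and 9.32 in liver. The peroxisomal steps were less reduced, with *Hsd17b4* at 8.96 in AML12 cells and 10.64 in liver and *Acox2* at 7.82 in AML12 cells and 9.42 in liver.

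Transporters of the hepatocyte membranes followed. Of 21 genes, 20 were lower, with a median of -5.39, or -3.01 over those at or above the gene median on both arrays. *Slc10a1*, the sodium-dependent bile acid importer NTCP, had 3.51 in AML12 cells and 10.89 in liver, and *Abcb11*, the bile salt export pump, had 2.28 in AML12 cells and 10.45 in liver. *Slco1b2*, an organic anion importer, had 2.10 in AML12 cells and 11.58 in liver. *Atp7b*, the copper pump, was the exception, at 7.55 in AML12 cells and 7.23 in liver. General efflux pumps were mixed: of 8 compared, 3 were higher and 2 lower, with a median of -0.06. Over all compared genes 21.7% were higher and 14.9% lower. *Abcc4* had 8.70 in AML12 cells and 4.83 in liver, and *Abcc5* had 6.97 in AML12 cells and 4.78 in liver. *Abcc1* had 6.99 in AML12 cells and 5.09 in liver. By contrast *Abca1*, which loads cholesterol onto apolipoprotein A1, had 4.94 in AML12 cells and 9.89 in liver.

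Urea synthesis and amino acid breakdown had some of the lowest levels in AML12 cells relative to liver. Of 30 genes compared, 28 were lower, 23 by 3 log2 or more. The median was -6.14, or -2.60 over those at or above the gene median on both arrays. *Cps1*, which commits ammonia to the urea cycle, had 3.44 in AML12 cells and 12.38 in liver, at least 426-fold lower. *Otc*, the next enzyme, had 2.04 in AML12 cells and 10.58 in liver, and *Arg1*, which releases urea, had 4.07 in AML12 cells and 10.80 in liver. Of the middle steps, *Asl* was less affected, at 7.94 in AML12 cells and 9.83 in liver. *Ass1* read low on both arrays, at 4.38 in AML12 cells and 5.67 in liver. Whether its probe set responds well was not tested, so the size of its difference is uncertain. The tryptophan and tyrosine enzymes *Tdo2*, *Tat* and *Hpd* had 2.14, 3.69 and 3.64 in AML12 cells and 11.51, 12.04 and 10.87 in liver. *Gldc*, the glycine cleavage decarboxylase, was the only gene higher, at 10.78 in AML12 cells and 9.05 in liver, and *Xdh*, xanthine dehydrogenase, was within 1 log2.

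Genes of gluconeogenesis, fructose and glycogen metabolism were lower throughout. All 17 compared were lower. The median was -3.03, or -2.09 over those at or above the gene median on both arrays. These are RNA levels, and glucose release itself was not measured. *Pck1* and *G6pc*, the entry and exit enzymes of gluconeogenesis, had 3.70 and 3.59 in AML12 cells and 11.57 and 10.45 in liver, and *Fbp1*, the step between them, had 3.42 in AML12 cells and 11.23 in liver. Of 17 compared genes of glycolysis 11 were higher, 6 were within 1 log2 and the median was 1.20. *Pklr*, the pyruvate kinase of liver glycolysis, was counted in the first list and was lower, at -1.09 log2. *Pfkp*, a phosphofructokinase, had 7.63 in AML12 cells and 4.13 in liver, and *Hk1*, the general hexokinase, had 6.18 in AML12 cells and 4.14 in liver. *Gapdh* was nearly level, at 12.70 in AML12 cells and 12.11 in liver.

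For several enzymes and transporters the liver form was lower and a widely expressed relative higher in AML12 cells. In 15 measured pairs a gene typical of hepatocytes or epithelium was set beside a relative of other tissues. The first gene was lower in 11, the relative was higher in 9, and in 6 pairs both held. The pairing is loose for *Gstm1* and *Gstp1*, since *Gstp1* is itself high in male mouse liver, and for *Bcat2* and *Ccnd3*, which are not particular to hepatocytes, and the relative of *Cox7a2* is the muscle form *Cox7a1*. Pyruvate kinase showed *Pklr*, the liver form, at 9.09 in AML12 cells and 10.18 in liver, and *Pkm* at 11.46 in AML12 cells and 6.90 in liver. Glycogen synthase showed *Gys2* at 3.14 in AML12 cells and 10.85 in liver, and *Gys1* at 8.33 in AML12 cells and 5.25 in liver. The other 4 pairs of this kind were the glucose transporters *Slc2a2* and *Slc2a1*, the glycogen phosphorylases *Pygl* and *Pygb*, the multidrug resistance proteins *Abcc2* and *Abcc1* and the transferrin receptors *Tfr2* and *Tfrc*. *Tfrc*, the general receptor for iron uptake, had 8.77 in AML12 cells and 6.20 in liver. *Slc2a2*, the liver glucose transporter GLUT2, was still high, at 9.56 in AML12 cells and 11.02 in liver. Cadherins did not follow: *Cdh1* had 10.21 in AML12 cells and 8.63 in liver, and *Cdh2* 9.68 in AML12 cells and 10.07 in liver. *Krt18* and *Vim*, keratin and vimentin, were both higher, by 1.77 and 3.17 log2.

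**Figure D4:**
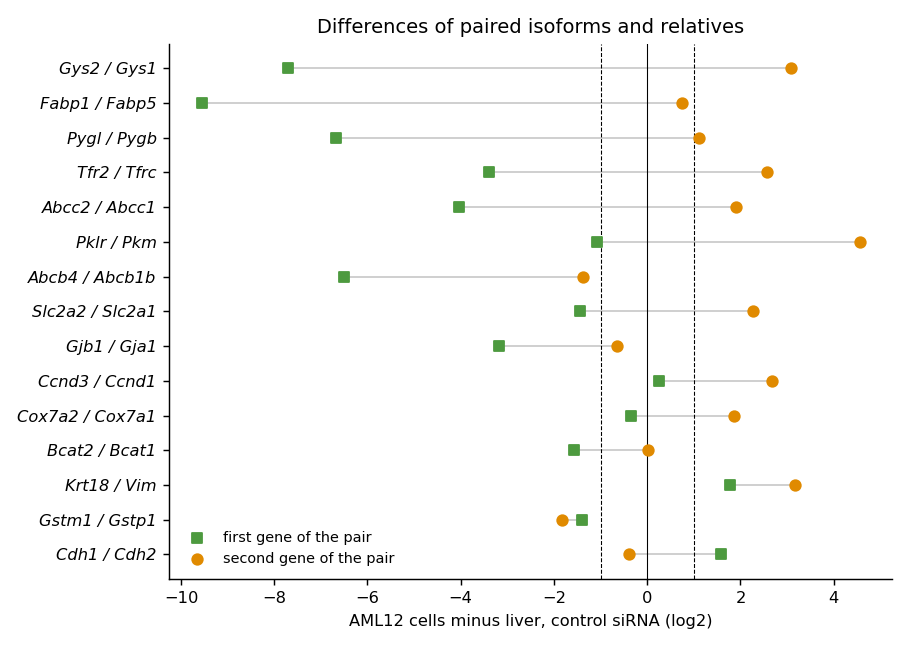
Difference between AML12 cells and liver (log2, control siRNA) of 15 gene pairs. The green square is the first gene of the pair, typical of hepatocytes or epithelium, and the orange circle is its relative. In 13 pairs the circle lies to the right of the square, the widest gap being that of *Gys2* and *Gys1* at 10.79 log2.

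Lipid pathways had smaller median differences than plasma proteins, P450 enzymes, bile acid synthesis and the urea cycle. Of 24 genes of fatty acid oxidation, 16 were lower and 1 higher, with a median of -1.33. *Fabp1*, the fatty acid carrier of hepatocytes, had 2.19 in AML12 cells and 11.74 in liver, but *Cpt1a*, the gate to mitochondrial oxidation, had 10.18 in AML12 cells and 10.44 in liver, and *Acadl*, an acyl-CoA dehydrogenase, had 9.94 in AML12 cells and 9.90 in liver. Of 24 genes of fatty acid synthesis, 10 were lower and none higher, with a median of -0.81. *Scd2*, a desaturase of tissues other than liver, was not among the 24, because its probe set also carries *Mir5114*. That probe set had 12.33 in AML12 cells and 5.65 in liver, an excess in AML12 cells of 6.68 log2. *Fasn*, fatty acid synthase, had 9.33 in AML12 cells and 10.08 in liver and *Acly*, which supplies its acetyl-CoA, 9.70 in AML12 cells and 9.80 in liver. *Elovl3*, an elongase of male liver, had 2.73 in AML12 cells and 10.86 in liver, and *Thrsp*, which responds to thyroid hormone and feeding, had 3.99 in AML12 cells and 9.68 in liver.

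The cholesterol pathway, the subject of the study, lay near the middle. Of 20 genes, 5 were lower and 3 higher in AML12 cells, and 12 were within 1 log2, with a median of -0.14. Over all compared genes 14.9% were lower and 21.7% higher, so these counts do not set the list apart. *Srebf2*, the master regulator of sterol synthesis, had 9.26 in AML12 cells and 7.34 in liver. *Sqle*, squalene epoxidase, had 9.11 in AML12 cells and 8.56 in liver, and *Hmgcs1*, which forms HMG-CoA, had 10.30 in AML12 cells and 10.81 in liver. *Insig1*, which retains the SREBP complex in the endoplasmic reticulum, had 8.96 in AML12 cells and 10.58 in liver, and *Sc5d*, a late desaturase, had 9.11 in AML12 cells and 10.85 in liver. *Ulk1*, the kinase that the study silenced in its other arrays, had 7.47 in AML12 cells and 8.73 in liver. Of 22 autophagy genes 4 were lower, which is near the 14.9% of all compared genes. None was higher, against 21.7% of all compared genes, and the median was -0.05. Respiratory chain genes were also near level, with 21 of 24 within 1 log2 and a median of -0.41.

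Every gene of mitosis was higher in AML12 cells. All 27 passed 1 log2 and 19 passed 3 log2, with a median of 3.35, against 21.7% of compared genes higher. *Cep55*, which completes cytokinesis, had 8.19 in AML12 cells and 3.30 in liver. *Mki67*, the proliferation marker, had 9.78 in AML12 cells and 6.43 in liver, and *Cdk1*, the mitotic kinase, had 7.91 in AML12 cells and 5.82 in liver. Of these genes, 4 were at background in liver. Of 27 genes of DNA replication, 22 were higher and none lower, with a median of 1.85. *Mcm2*, a subunit of the replicative helicase, had 7.85 in AML12 cells and 4.69 in liver, and *Pcna*, the sliding clamp, had 9.08 in AML12 cells and 8.0 in liver.

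Drivers and inhibitors of the cell cycle were both among the higher genes. Of 19 cyclins, kinases, inhibitors and p53 targets compared, 13 were higher and none lower, with a median of 1.26. Of the 7 *Cdkn* inhibitors among them, 4 were higher. *Cdkn1a*, the p21 inhibitor, had 9.57 in AML12 cells and 5.51 in liver, the widest gap of the list. *Cdkn1b*, the p27 inhibitor, had 8.44 in AML12 cells and 6.10 in liver, and *Ccng1*, a p53 target, had 10.87 in AML12 cells and 8.72 in liver. *Ccnd1*, the cyclin that drives entry into the cycle, had 10.46 in AML12 cells and 7.79 in liver, and *Cdk4*, its kinase, had 9.97 in AML12 cells and 7.60 in liver.

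Promoters of mitosis genes are shown because most hold TTTGAA, the core of the cell cycle homology region through which the DREAM complex holds such genes silent in resting cells. On both strands it was found in 17 of 22 compared mitosis genes with a window (77.3%) and in 20.2% of all genes with a window. CCAAT, the box bound by NF-Y, was found in 17 of the 22 (77.3%) and in 41.1% of all genes. The 2 motifs can share at most 1 base, at their edges. In DNA replication genes the E2F element TTTCCCGC was found in 4 of 23 (17.4%) and in 1.24% of all genes. The *Cdk1* window is chr10:69352863-69353162 on the minus strand and the *Ccnb2* window chr9:70421505-70421804 on the minus strand, with TTTGAA in capitals.
Cdk1: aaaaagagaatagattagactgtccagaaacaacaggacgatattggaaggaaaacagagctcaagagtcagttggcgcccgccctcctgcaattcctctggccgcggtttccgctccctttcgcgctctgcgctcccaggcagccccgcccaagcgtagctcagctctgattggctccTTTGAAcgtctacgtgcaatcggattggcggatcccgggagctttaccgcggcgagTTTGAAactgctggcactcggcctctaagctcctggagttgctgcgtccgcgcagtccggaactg
Ccnb2: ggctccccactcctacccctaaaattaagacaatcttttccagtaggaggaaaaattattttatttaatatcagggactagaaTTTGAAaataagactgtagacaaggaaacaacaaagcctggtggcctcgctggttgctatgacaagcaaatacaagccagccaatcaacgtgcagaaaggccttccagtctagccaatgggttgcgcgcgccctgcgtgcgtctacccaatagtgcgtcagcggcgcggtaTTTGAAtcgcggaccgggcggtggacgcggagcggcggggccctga
*Ccnb2*, cyclin B2, had 8.73 in AML12 cells and 5.50 in liver, and both genes carry a match close to the start, and another further upstream.

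Cytoskeletal genes were the other large group with higher levels. Of 29 genes of the actin cytoskeleton, annexins and their S100 partners, 25 were higher and 2 lower, with a median of 2.41. *S100a6*, calcyclin, had 10.65 in AML12 cells and 3.82 in liver, and *Anxa8* had 9.11 in AML12 cells and 3.29 in liver, which is background. *Ezr*, ezrin, which ties actin to the membrane, had 11.12 in AML12 cells and 5.45 in liver, and *Cav1*, the coat protein of caveolae, had 8.74 in AML12 cells and 3.86 in liver. The 2 lower genes were the smooth muscle genes *Acta2* and *Tagln*, at 5.17 and 3.86 in AML12 cells and 6.73 and 4.99 in liver. *Actb*, beta-actin, had 10.12 in AML12 cells and 9.11 in liver, so a reference gene of many assays differed by 1.01 log2 here. Of 12 reference genes, 6 were higher and none lower, with a median of 0.93.

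YAP and SRF are factors that answer to adhesion, tension and serum. In the list of their targets 13 of 19 compared genes were higher and none lower, with a median of 1.38. Besides targets, this list holds *Yap1*, *Wwtr1* and *Lats2*, which belong to the YAP pathway itself. *Ankrd1* had 9.93 in AML12 cells and 3.94 in liver, and *Ccn2*, connective tissue growth factor, had 9.67 in AML12 cells and 5.30 in liver. *Axl*, a receptor kinase, had 10.16 in AML12 cells and 6.97 in liver. *Yap1* itself was level, at 8.30 in AML12 cells and 8.02 in liver. GGAATG, the element of the TEAD partners of YAP, was found on either strand in 10 of 16 of these genes with a window (62.5%) and in 16.6% of all genes. The *Ankrd1* window, chr19:36119795-36120094 on the minus strand, is shown for its 2 matches, in capitals.
Ankrd1: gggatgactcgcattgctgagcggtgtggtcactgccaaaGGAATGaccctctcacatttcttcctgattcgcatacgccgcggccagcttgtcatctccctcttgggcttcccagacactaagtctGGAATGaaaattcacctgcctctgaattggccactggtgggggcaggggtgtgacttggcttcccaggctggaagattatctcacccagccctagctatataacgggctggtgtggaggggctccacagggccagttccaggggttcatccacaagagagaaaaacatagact

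Adhesion genes were redistributed. Of 19 compared keratin, cadherin and junction genes, 10 were higher and 6 lower. Their median was 1.51, against 0.26 over all 24 measured and 0.82 over those at or above the median on both arrays, and their mean was 0.21. The keratins of hepatocytes were kept, with *Krt8* at 11.04 in AML12 cells and 8.95 in liver, and keratins of ducts and gut were higher as well, with *Krt20* at 9.53 in AML12 cells and 3.85 in liver and *Krt19* at 9.88 in AML12 cells and 3.81 in liver. The 6 lower genes were those of hepatocyte junctions and the canaliculus: *Gjb1* and *Gjb2* (connexins), *Cldn1* and *Cldn3* (claudins), *Ocln* and *Ceacam1*. *Gjb2* had 3.52 in AML12 cells and 9.07 in liver, and *Cldn1* had 3.69 in AML12 cells and 9.11 in liver. *Tjp1*, the scaffold ZO-1 of the same junctions, had 10.34 in AML12 cells and 8.41 in liver.

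Matrix genes did not move as a block, with 8 of 30 higher and 9 lower and a median of 0.14, whose sign changed with quantile normalization of the pair (-0.04). *Vim* had 11.28 in AML12 cells and 8.10 in liver, *Timp1* had 7.42 in AML12 cells and 3.03 in liver, and *Snai2*, a repressor linked to epithelial plasticity, had 9.17 in AML12 cells and 7.03 in liver. The fibrillar collagens were lower, with *Col3a1* at 3.97 in AML12 cells and 8.37 in liver and *Col1a1* at 4.46 in AML12 cells and 7.09 in liver. *Zeb1* and *Twist1*, other factors of mesenchymal change, were low and within 1 log2 on both arrays. *Fn1*, fibronectin, was high in both, at 10.87 in AML12 cells and 11.61 in liver.

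The EGF receptor system is of interest since the line carries a human transgene for a ligand of that receptor. The mouse probe set of *Tgfa* had 7.89 in AML12 cells and 6.12 in liver, and whether it also reads the human transcript was not tested. Among other ligands of the wider EGF family, *Nrg1*, neuregulin 1, had 9.0 in AML12 cells and 4.34 in liver. *Hbegf* had 7.10 in AML12 cells and 4.34 in liver. Among receptors, *Egfr* had 9.04 in AML12 cells and 11.08 in liver, *Erbb3* had 3.92 in AML12 cells and 9.43 in liver, and *Erbb2* had 6.86 in AML12 cells and 4.49 in liver. *Dusp6* and *Dusp4*, phosphatases induced by ERK, were higher by 1.21 and 2.12 log2. Over the 22 compared genes 7 were higher and 6 lower, against 21.7% and 14.9% of all compared genes. Their median was 0.56, but 0.04 over those at or above the gene median on both arrays and 0.07 in the *Ulk1* siRNA pair.

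Receptors and products of endocrine signalling were lower. Of 22 genes, 15 were lower and 4 higher, with a median of -3.58. *Ghr*, the growth hormone receptor, had 4.67 in AML12 cells and 9.43 in liver, and its target *Igf1* had 4.81 in AML12 cells and 10.50 in liver. *Gcgr*, the glucagon receptor, had 4.19 in AML12 cells and 8.84 in liver. *Insr*, the insulin receptor, was less reduced, at 7.61 in AML12 cells and 8.87 in liver, and *Igf1r* was higher, at 8.21 in AML12 cells and 4.83 in liver. *Met*, the receptor of hepatocyte growth factor, had 9.77 in AML12 cells and 8.62 in liver.

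Glucocorticoid-responsive genes were of interest because the medium held dexamethasone. Of 14 compared, 7 were higher and 2 lower, with a median of 1.16. *Fkbp5*, a classical target, had 8.28 in AML12 cells and 5.65 in liver, and *Sgk1*, a kinase, had 9.63 in AML12 cells and 6.39 in liver. *Tsc22d3*, another classical target, was level, at 6.59 in AML12 cells and 6.57 in liver. *Tat*, the hepatic target, had 3.69 in AML12 cells and 12.04 in liver. The metallothioneins *Mt1* and *Mt2*, which also answer to zinc and inflammation, had 10.92 and 11.44 in AML12 cells and 8.67 and 8.85 in liver, but in the *Ulk1* siRNA pair they differed by only 0.09 and -0.30 log2, and there the list median was 0.32.

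Markers of the other liver cells were lower in AML12 cells and often at background. Of 16 compared Kupffer cell markers, 15 were lower and none higher (median -3.06), and 10 of the 17 measured were at background in AML12 cells and 0 in liver. Their summed signal on the linear scale was 202 in AML12 cells and 2420 in liver. *Vsig4* had 2.25 in AML12 cells and 8.14 in liver, and *Clec4f*, which defines these cells in mice, had 3.29 in AML12 cells and 7.65 in liver. Of 18 markers of sinusoidal endothelium, 17 were lower (median -3.27, or -2.70 with values raised to background), with *Clec4g* at 2.50 in AML12 cells and 8.35 in liver and *Stab2* at 3.29 in AML12 cells and 8.03 in liver, and the summed signal was 398 in AML12 cells and 3294 in liver. Of 16 stellate cell markers, 15 were lower (median -3.62, or -2.64 with values raised to background), with *Dcn*, decorin, at 2.98 in AML12 cells and 9.38 in liver, and summed signals of 235 in AML12 cells and 2942 in liver. *Flt4*, an endothelial receptor, was the one of these 18 endothelial markers not lower by 1 log2, at 6.66 in AML12 cells and 7.03 in liver. Neutrophil markers were under the filter on both arrays, all 10 of them, and of 16 lymphocyte markers 4 were compared and 1 was lower, *Ptprc*, at 2.47 in AML12 cells and 5.25 in liver. The part of these cells in the differences of matrix, interferon, Fc receptor and other genes was not tested.

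The hepatocyte label of AML12 cells was borne out by part of the marker list only. Of 14 hepatocyte markers, all were lower in AML12 cells (median -7.12), 7 were at background there, and *Alb*, *Ttr*, *Apob* and *Hnf4a* were at 8.47 log2 or more. Markers at or above the gene median on both arrays had a median of -1.67. The summed signal of the list was 6716 in AML12 cells and 48751 in liver. Markers of bile duct cells were split. Of 11 measured, 5 were higher, *Krt7*, *Krt19*, *Sox9*, *Tm4sf4* and *Pkhd1*, by 2.30 to 6.07 log2, of which *Krt7* and *Krt19*, at 3.90 and 3.81 in liver, were compared through AML12 cells alone. The median of all 11 was 1.09, and summed signals were 4939 in AML12 cells and 670 in liver. *Sox9*, a factor of ducts and progenitors, had 9.34 in AML12 cells and 5.33 in liver. The other 6, which include the defining markers *Epcam* (2.80 in AML12 cells, 2.81 in liver), *Cftr* and *Muc1*, did not reach the filter on either array.

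**Figure D5:**
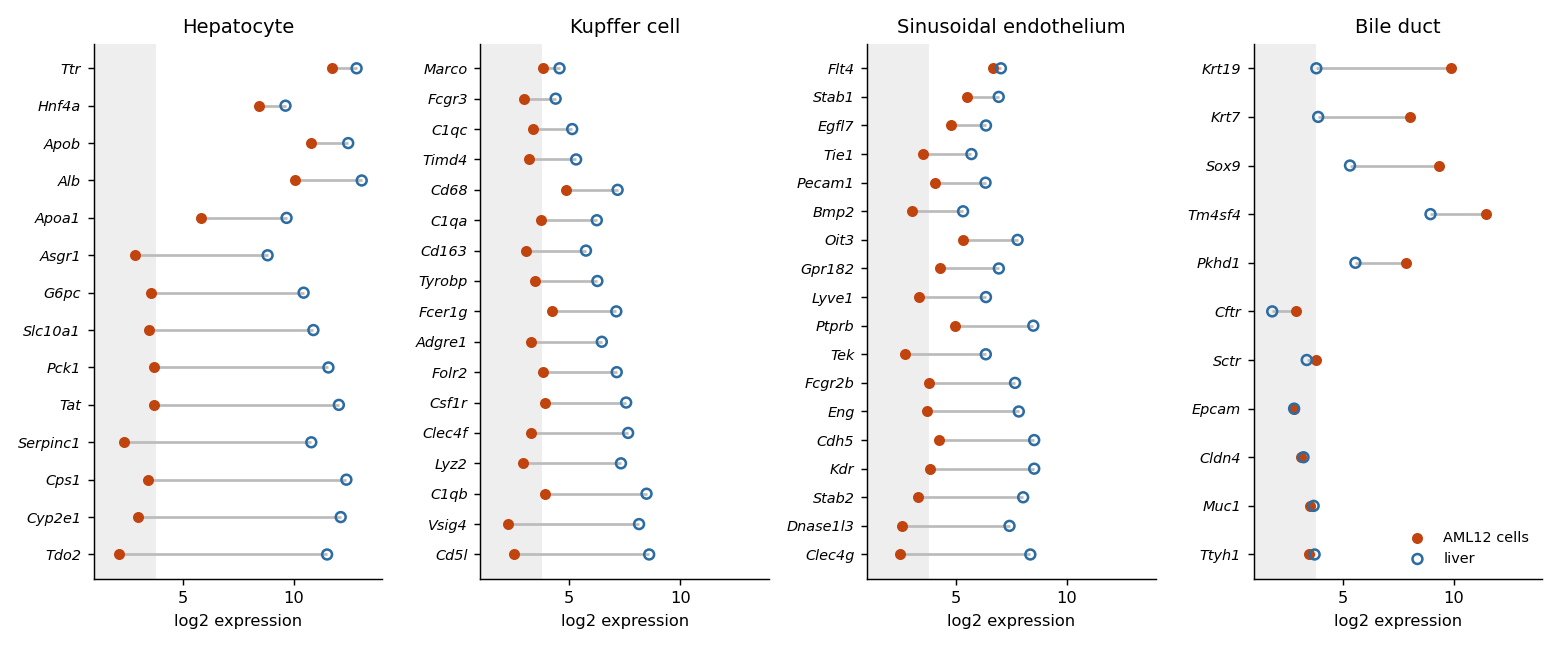
Log2 expression of marker genes of 4 liver cell types in AML12 cells (filled orange) and liver (open blue), 1 array each. The grey band is the background range. Kupffer and endothelial markers lie at or near the band in AML12 cells, hepatocyte markers split, with *Alb*, *Ttr*, *Apob* and *Hnf4a* well above the band, and bile duct markers split between genes higher in AML12 cells and genes in the band on both arrays.

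Genes of fetal liver and of progenitors were mixed. Of 12 compared, 8 were higher and 2 lower, with a median of 3.13, against 0.20 over all 20 measured. *Peg3*, an imprinted zinc finger gene, had 11.66 in AML12 cells and 5.44 in liver, *Sox4* had 9.28 in AML12 cells and 4.16 in liver, and *Hmga2*, a chromatin protein of embryonic and tumour cells, had 8.08 in AML12 cells and 4.87 in liver. The classical fetal products were not among them. *Afp*, alpha-fetoprotein, had 3.99 in AML12 cells and 5.08 in liver, and *Igf2*, *Dlk1* and *Gpc3* did not reach the filter. *Lgr5*, a Wnt target of pericentral hepatocytes, had 3.75 in AML12 cells and 5.78 in liver.

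Zonal genes were lower from both ends of the lobule. Of 16 periportal genes, 15 were lower (median -6.04), and of 15 pericentral genes, 11 were lower (median -3.04). Among those at or above the gene median on both arrays the medians were -1.63 and -1.80. Which end was lower therefore depended on the filter. The pericentral genes kept within 1 log2 were *Glul*, glutamine synthetase, at 10.70 in AML12 cells and 11.07 in liver, *Aldh1a1* at 11.04 in AML12 cells and 11.64 in liver, *Axin2* and *Ahr*. Interferon and antigen presentation genes were lower in 12 of 22 and higher in 1, with a median of -1.38. *Ifi27* had 3.63 in AML12 cells and 8.12 in liver, and *B2m*, the light chain of class I molecules, had 12.07 in AML12 cells and 12.39 in liver.

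Male-biased genes of mouse liver, which depend on pulsed growth hormone, were lower in all 12 compared, with a median of -7.21 (-6.35 with values raised to background) and 10 of 13 measured at background in AML12 cells. *Mup20* had 2.70 in AML12 cells and 12.61 in liver and *Hsd3b5* 1.51 in AML12 cells and 10.05 in liver. The Y-linked genes *Uty*, *Eif2s3y* and *Kdm5d* had 2.04, 2.41 and 1.94 in AML12 cells, all background, and 6.49, 6.45 and 5.87 in liver. The same 3 genes differed by -5.18, -4.50 and -3.89 log2 in the *Ulk1* siRNA pair. The female-specific *Xist* was at background in both, at 2.52 in AML12 cells and 2.30 in liver, so neither marker of a sex was measured in the line labelled male.

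Gene families were also taken whole. They share members with the lists above and so are not separate evidence. Over all compared genes 21.7% were higher and 14.9% lower. Lower in AML12 cells were all 12 compared *Serpina* genes (median -6.56), all 9 *Ugt* genes (median -6.22), 16 of 17 *Apo* genes (median -5.10) and 12 of 15 *Fcer*, *Fcgr* and *Clec* genes (median -3.15, or -2.63 with values raised to background). Higher were 7 of 10 *Anxa* genes (median 3.24), 14 of 17 histone genes (median 2.16), 7 of 11 tubulin genes (median 1.52) and 19 of 34 kinesins (median 1.43), with none lower in the first 3 and 3 kinesins lower. The 17 were taken by symbol and include *H13*, which is not a histone and was within 1 log2. Ribosomal protein genes were higher in 25 of 60 and lower in 1, with a median of 0.94. Genes of the *Psm* prefix, proteasome genes save for *Psmc3ip*, were level, with 33 of 36 within 1 log2 and a median of 0.16. Other families were mixed, with 9 of 20 compared genes of the *Itg* prefix higher and 5 lower, and 4 of 10 laminin (*Lam*) genes higher and 4 lower. The compared *Itg* genes are integrins save for *Itgb1bp1*, *Itgb1bp2* and *Itgb3bp*, of which the first and the last were among those higher. *Hox* genes, which mark body position, were mostly too low to compare, 8 of 37 passing the filter and 1 of these higher. The 8 include the antisense transcript *Hoxd3os1*, within 1 log2. Histone, tubulin and ribosomal genes have close copies and pseudogenes, so values of single members are uncertain.

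Probe sets that carry the name of a microRNA gene read the transcript around the hairpin and not the mature microRNA. Of 97 such loci compared, 19 were lower in AML12 cells and 1 higher, with a median of -0.32. Over all compared genes 14.9% were lower and 21.7% higher. *Mir505* had 2.85 in AML12 cells and 8.66 in liver, and *Mir1933* had 2.37 in AML12 cells and 6.77 in liver. *Mir122*, the locus of the most abundant hepatocyte microRNA, had 3.45 in AML12 cells, which is background, and 6.29 in liver. Mature sequences were found for 13 of the 20 called loci, and those of *Mir505* and *Mir1933*, which were at background in AML12 cells so that only a bound of their differences is known, are shown with bases 2 to 8, the seed, in capitals.
mmu-miR-505-3p: cGUCAACAcuugcugguuuucu
mmu-miR-505-5p: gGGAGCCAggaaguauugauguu
mmu-miR-1933-3p: cCAGGACCaucagugugacuau
mmu-miR-1933-5p: aGUCAUGGuguucggucuuaguuu
The 4 seeds differ from each other. *Mir505* lies on chromosome X and *Mir1933* on chromosome 11.

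The pair of *Ulk1* siRNA arrays gave the same contrast in separate RNA, although its arrays were also treated. There 2775 of 12316 compared genes were higher in AML12 cells (22.5%) and 1776 lower (14.4%). Of the 2681 genes higher in the control pair, 2223 (82.9%) were also higher by 1 log2 in the *Ulk1* siRNA pair, whether or not they passed its filter, and of the 2775 higher genes past that filter 79.7% were called higher in the control pair. Of the 1839 lower genes, 1571 (85.4%) were also lower, and of the 1776 lower genes of the *Ulk1* siRNA pair 87.2% were called lower in the control pair. The gap between both differences of a gene had a median of 0.24 log2 and was under 0.88 log2 for 95% of compared genes. Mitosis genes had a median of 3.35 in the control pair and 2.14 in the *Ulk1* siRNA pair, and *Cdkn1a* differed by 4.06 log2 in the control pair and 5.40 in the *Ulk1* siRNA pair. The transcription factor list had a median of -1.22 in the control pair and -0.56 in the *Ulk1* siRNA pair, in which it stayed under 1 log2, and *Hnf4a* differed by -1.17 and -0.65 log2.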

How the data were processed

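Total RNA was profiled on 4 GeneChip Mouse Gene 2.0 ST arrays, and the 2 with control siRNA were compared. The deposited values are log2 signals of probe sets, which the authors made by RMA per the submitters' processing notes, with quantile normalization in Partek Genomics Suite 6.6 per the methods. The values were taken unchanged, and no source states if cells and tissue were normalized jointly. The arrays ran up to 13.1 in AML12 cells and 13.2 in liver. The genome build of the probes is not given in the sources used here.

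Gene symbols came from the platform annotation. Of 41345 probe sets, 23521 carried 1 symbol and were collapsed to 22180 genes, with the probe set of the highest mean standing for each of the 1082 genes that had several, while 1820 carried several symbols and 16004 none, and neither kind was used. A gene was compared when its higher value reached the gene median of that array. A difference is AML12 cells minus liver in log2.

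The report covers 44 gene lists with 894 different genes, of which 84 were not analysed here and 716 were compared. The members and lists were chosen with earlier results of these data known. Named genes were the 15 largest differences each way, the leading members of each list, gene pairs and abundant genes, leaving out predicted genes, receptor and immunoglobulin segments. The difference and call steps were tested on simulated data. Python 3 with pandas and numpy was used. Promoter and microRNA sequences are those of RefSeq (GRCm38.p6). Alternatives were other filters, probe set means, centring, quantile normalization of the pair, a background floor, a 1.5-fold threshold and the *Ulk1* siRNA arrays.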

Additional observations from a re-analysis of the deposited data

Results flagged for a closer look

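For 2 genes the difference between AML12 cells and liver had opposite signs in the control pair and in the *Ulk1* siRNA pair, by 1 log2 or more in both; whether the pairs differ was not tested, since each group is 1 array. *Afp*, the fetal albumin relative, differed by -1.09 log2 in the control pair (3.99 in AML12 cells, 5.08 in liver) and by 1.07 in the *Ulk1* siRNA pair (5.03 in AML12 cells, 3.96 in liver). *Saa3*, an acute phase protein of macrophages and stressed epithelia, differed by 3.10 log2 in the control pair (8.55 in AML12 cells, 5.45 in liver) and by -1.61 in the *Ulk1* siRNA pair (7.53 in AML12 cells, 9.14 in liver).

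Some genes of the lists are read only by probe sets that carry several symbols, which no comparison used, and those that differed by 3 log2 or more are given here. *Scd2*, a desaturase of tissues other than liver, shares its probe set with *Mir5114*, and differed by 6.68 (12.33 in AML12 cells, 5.65 in liver). The probe set of *Igf2bp1*, a fetal RNA binding protein, and *Mir3063* differed by 3.66 (7.64 in AML12 cells, 3.98 in liver). The others were lower in AML12 cells. The probe set of *Masp2*, a complement protease, and *Tardbp* differed by -6.57 (4.14 in AML12 cells, 10.71 in liver), and that of *Rnase4* and *Ang*, secreted ribonucleases, by -6.12 (3.86 in AML12 cells, 9.98 in liver). Of the probe sets of *Cyp4a10*, a fatty acid hydroxylase, that shared with *Cyp4a31* differed by -8.46 (1.60 in AML12 cells, 10.06 in liver) and that shared with *Cyp4a32* by -4.66 (1.99 in AML12 cells, 6.65 in liver). The probe set of *Gstz1*, of tyrosine breakdown, and *Pomt2* differed by -3.01 (7.81 in AML12 cells, 10.82 in liver).

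Red cell genes were among these probe sets, and not all of them differed. Of the alpha-globin probe sets of *Hba-a1* and *Hba-a2*, 1 differed by -5.97 (3.51 in AML12 cells, 9.48 in liver) and the other by -0.13 (5.06 in AML12 cells, 5.19 in liver). Of the beta-globin probe sets, 1 differed by -4.92 (2.28 in AML12 cells, 7.20 in liver), another by -4.10 (1.70 in AML12 cells, 5.80 in liver), and the third was at background on both arrays (1.5 in AML12 cells, 3.15 in liver). The probe set of *Alas2*, the heme enzyme of red cells, and *Apex2* differed by -5.32 (3.38 in AML12 cells, 8.70 in liver).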

How the results depend on the processing

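No paired analysis was possible because each group is 1 array, and no array could be left out. Of 34 counts of genes under other settings, 30 stayed within 1.5 times. With both arrays required at or above their gene median, 952 genes were lower by 1 log2, 127 higher by 3 log2 and 180 lower by 3 log2, since that filter leaves out genes absent from 1 side. At a threshold of 1.5-fold 4380 genes were higher. Quantile normalization of the pair gave 2421 higher and 1955 lower genes and left the median of all genes at 0.08. Of 332 list medians under other settings, 314 kept their sign and their side of 1 log2. In 6 cases over 4 lists a median of 0.14 or less in size changed sign, and stayed within 0.15 of 0, for matrix, efflux transporter, autophagy and *Hox* genes. In the *Ulk1* siRNA pair the median was -0.56 for transcription factors, 0.84 for glycolysis and 0.32 for glucocorticoid-responsive genes, and the cause was not tested. With both arrays filtered it was -0.85 for conjugating enzymes and 0.82 for keratins and adhesion. Under that filter several medians shrank but stayed past 1 log2. They were -3.32 for plasma proteins, -2.60 for urea and amino acids, -1.67 for hepatocyte markers, -1.51 for endocrine genes and -4.18 for male-biased genes. With no filter the median was 0.20 for fetal genes, 0.26 for keratins and adhesion and 0.96 for glucocorticoid-responsive genes, as low genes enter. Means over members were -1.74 for fatty acid synthesis, 0.21 for keratins and adhesion, 0.71 for glucocorticoid-responsive genes and -1.06 for lymphocyte markers. Of 45 values of gene pairs, 1 crossed 1 log2, *Gstp1* against *Gstm1*, at -1.06 in the *Ulk1* siRNA pair. All 90 values of the 30 largest single differences kept their direction and stayed past 1 log2. With the mean of its probe sets *Kcnma1* differed by 4.90 and *Rbp2* by 4.29. Signal near background limits the size of most large deficits, 321 of 638 being bounds.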

Other observations

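Several listed genes not described above also stood apart. *Lgals1* and *Msn*, a galectin and a membrane linker, had 10.60 and 10.28 in AML12 cells and 8.29 and 7.17 in liver. *Slc7a11*, the cystine importer, had 5.41 in AML12 cells and 2.62 in liver, while *Nqo1*, another gene induced by NRF2, had 3.22 in AML12 cells and 5.75 in liver. Over 16 genes of the NRF2 response 3 were higher, 3 lower and the median was 0.15. Of all compared genes 21.7% were higher and 14.9% lower, so these counts do not set that response apart. *Gclc*, the first enzyme of glutathione synthesis, had 11.18 in AML12 cells and 10.10 in liver.

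The median difference was not the same on every chromosome. Of 9809 genes at or above the median on both arrays, 9799 were placed on a chromosome, and their median difference was 0.26. It was 0.81 for the 358 genes of chromosome 19 and 0.57 for the 267 genes of chromosome X. For the 303 genes of chromosome 16 it was -0.12. In the *Ulk1* siRNA pair the same medians were 0.93, 0.60 and -0.09. Of the 9809 genes, 1984 were higher and 952 lower by 1 log2 in AML12 cells in the control pair. On chromosome 19, 40.8% were higher and 9.22% lower. On chromosome X, 33.3% were higher and 4.49% lower. On chromosome 16 more genes were lower (15.8%) than higher. Copy number was not measured, and this comparison was chosen after the values were seen.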
